A study of Rattus norvegicus with 9 samples.

Results

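Cytosolic ribosomal protein genes were read in the posterior cricoarytenoid, the laryngeal muscle that opens the vocal folds, of rats aged 6, 18 and 30 months. Members were the genes whose probe sets carry a single platform symbol starting with Rpl or Rps and a digit, or the symbols *Rplp0* or *Rpsa*, with the Rps6k kinases left out. The rule found 43 genes among the 4736 with a single symbol, 29 of the large and 14 of the small ribosomal subunit. They were covered by 63 probe sets, and the one with the highest mean signal stood for its gene. The series asked how transcript levels in this muscle shift with age, with 6 months as the baseline. Each age had 3 Affymetrix Rat Genome U34 arrays, and each array carried RNA combined from 4 animals. The labels give neither strain nor sex, and no treatment at any age. Differences between arrays of an age are therefore differences between pools, and p-values measure the spread between pools, not between animals.

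A cytosolic ribosome joins a large subunit, which forms peptide bonds, to a small subunit, which reads the messenger RNA. Their proteins are made in matched amounts from separate genes, and most of the messages open with a run of pyrimidines called the 5' terminal oligopyrimidine tract, through which mTOR signalling sets how strongly they are translated. In skeletal muscle, ribosome number is a limit on protein synthesis and follows growth and loading. Translation through that tract can change with no change in message level, and an array reads message level alone.

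The start of the gene shows this shared feature without use of the arrays. RefSeq start sequences of the rat assembly GRCr8 were at hand for 36 of the 43 genes. Shown here are 10 bases before to 20 bases from the annotated start, 5' to 3', with capitals for the run of C and T that covers or borders the start. The first 6 genes hold a run of at least 5 that opens with C, and the last 3 do not; *Rplp0*, *Rpl35*, *Rps23*, *Rpl26*, *Rps6* and *Rpl3l* are members on which the results below turn.
Rplp0: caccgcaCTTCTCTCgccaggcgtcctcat
Rpl35: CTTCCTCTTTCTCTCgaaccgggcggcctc
Rpl31: atccctcgcgCCTTTCCTTTCCaacttggg
Rpl23: CTTCCTTTCTgactctttccggacgctcaa
Rps23: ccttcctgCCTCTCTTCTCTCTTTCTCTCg
Rps15: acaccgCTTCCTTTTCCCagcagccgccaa
Rpl26: gtcaacttacagaaccggaagtcgcatgta
Rps6: ctcctaggcggtcggctgtgtcaagatgaa
Rpl3l: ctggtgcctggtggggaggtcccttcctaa
The *Rplp0* window lies at chr12:46718371-46718400 on the minus strand, *Rpl35* at chr3:43165902-43165931 (minus), *Rps23* at chr2:23814507-23814536 (plus), *Rpl26* at chr10:54109682-54109711 (plus), *Rps6* at chr5:106420521-106420550 (minus) and *Rpl3l* at chr10:14258436-14258465 (plus). The windows cross the start of the transcript, and the *Rpl35* run goes on before its window, to 18 bases. Such a run was present at the annotated start of 14 of the 36 members (38.9%), against 3182 of all 33469 promoters (9.51%) and 9 of 65 mitochondrial ribosomal protein genes (13.8%). A run of 8 or more C and T bases anywhere within 25 bases of the start, a width and length set after the first search had been seen, was in 27 members (75%), 19.4% of all promoters and 21.5% of the mitochondrial set. Annotated starts can lie a few bases from the used ones, and a match describes letters, not a regulated site.

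Most members gave strong signals. Mean signal over the 9 arrays, in the linear units of the Affymetrix Microarray Suite 5.0 software, ran from 90.6 to 25001 among the 41 members that passed the signal filter, with a median of 5904. Of these 41 (28 large, 13 small), 36 lay among the strongest 20% of the 5244 probe sets tested. The 2 left out by the filter were *Rpl5*, at a mean of 47.0, and the pseudogene *Rps2-ps1*, at 23.4. Signals also repeated closely. The coefficient of variation over all 9 arrays had a median of 8.19% among members, 10.2% among the strongest 20% and 16.2% over all probe sets. Signals of different probe sets depend on their oligonucleotides, so a higher signal of one gene does not show more message than another gene has. Several weak readings belong to genes that another probe set, with more than a single symbol and so outside the rule, read as strong: *Rpl5* at 11536, *Rps24* at 8747 against 409 here, *Rpl17* at 4984 against 162, and *Rpl30* at 2130 against 90.6. The 4 weak readings are given with that limit.

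No ribosomal protein gene passed the test at any age. In a linear model over all 9 arrays (limma, Benjamini-Hochberg adjustment over 5244 probe sets), 0 of 41 members had an adjusted p under 0.05 at 18 against 6 months, where 0.0763% of all probe sets did. The count was also 0 at 30 against 6 months (0.324% of all probe sets), at 30 against 18 months (0.0191%) and in the F-test over the 3 ages (0.267%). The lowest adjusted p among members was 0.616 at 18 against 6 months, 0.371 at 30 against 6 and 0.999 at 30 against 18. At an unadjusted p under 0.05 there were 0, 2 and 0 members in those comparisons, against 8.62%, 12.9% and 3.2% of all probe sets. The 2 were *Rplp0* and *Rpl35*, at 30 against 6 months.

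The measurement bounds the differences narrowly for most members, as for most of the strongest 20%, and for 1 probe set per gene. The 95% interval of the change stayed within 1.5-fold either way for 36 of 41 members at 18 against 6 months (87.8%). It did so for 37 at 30 against 6 (90.2%) and for 37 at 30 against 18 (90.2%). Over all probe sets the shares were 62.3%, 57.6% and 69.3%, and among the strongest 20% they were 83.4%, 80.4% and 91.7%. The members whose intervals went past 1.5-fold in at least 1 comparison were *Rpl17*, *Rpl19l4*, *Rpl26*, *Rpl30*, *Rpl3l* and *Rps24*. The median half-width of the members' intervals was 0.27 on the log2 scale. An interval inside 1.5-fold limits the size of a change and does not show that levels were equal.

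**Figure D1:**
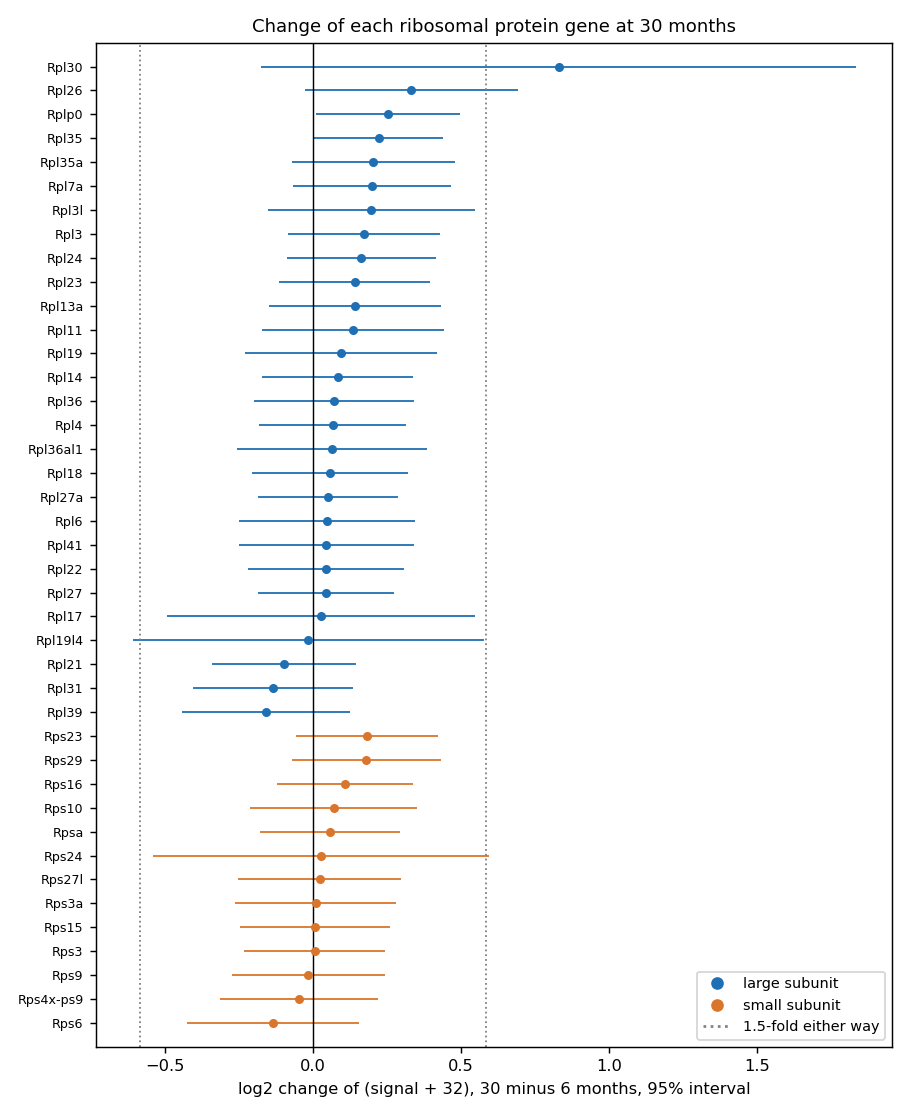
Log2 change of signal + 32 at 30 against 6 months for each of the 41 ribosomal protein genes past the filter (points, with limma's 95% interval), large subunit above and small subunit below, and dotted lines at 1.5-fold either way. All but 4 of the intervals lie inside the dotted lines, and 34 of the 41 points lie above 0.

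Although no single gene passed, more members read above than below their 6-month level at 30 months. The log2 change, on the scale of log2(signal + 32), was above 0 for 34 of 41 members at 30 against 6 months, against 41.2% of all probe sets and 59.9% of the strongest 20%. It was above 0 for 25 members at 18 against 6 months (all probe sets 42.3%, strongest 20% 61.3%) and for 30 at 30 against 18 months (45.9% and 48.5%). The medians were small. At 30 against 6 months the members' median change was 0.06, beside -0.05 over all probe sets and 0.04 among the strongest 20%. At 30 against 18 months it was 0.05, beside -0.02 and -0.003. At 18 against 6 months it was 0.02, beside -0.04 and 0.04, and it turned to -0.03 with quantile normalization and to -0.01 with arrays centred on the strongest 20%. The 30-month median stayed above 0 with those scalings, at 0.03 with either, with 25 and 28 members above 0. Without replicate 3 at 30 months it was 0.11. With each array left out in turn, 29 to 34 members were above 0 at 30 against 6 months. The fewest were found without replicate 1 at 30 months. All 3 comparisons share arrays, so they are not separate readings of the same pattern.

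**Figure D2:**
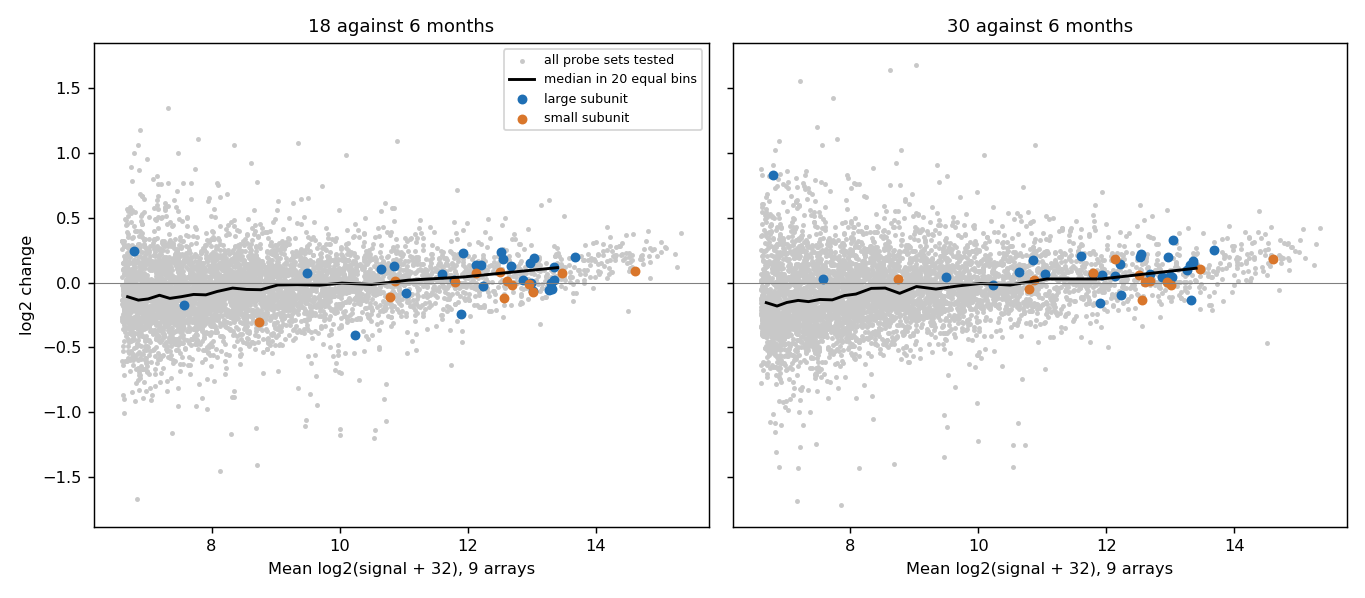
Log2 change at 18 against 6 months (left) and 30 against 6 months (right) against mean log2(signal + 32) over 9 arrays, for all 5244 probe sets tested (grey), the large subunit (blue) and the small subunit (orange); the line is the median in 20 bins of equal number. The line climbs from below 0 among weak probe sets to above 0 among strong ones at both ages, and most members lie at the strong end, around the line.

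The groups without overlap are few. At 30 months all 3 arrays read above all 3 arrays of 6 months for 7 members, *Rplp0*, *Rpl35*, *Rpl26*, *Rpl24*, *Rpl7a*, *Rpl3* and *Rps23*. That is 17.1% of the 41, beside 7.4% of all probe sets and 15.4% of the strongest 20%. Of these genes *Rpl35*, *Rpl26*, *Rpl24* and *Rpl3* have another probe set, which was also higher without overlap in *Rpl35* alone. The reverse held for 1 member, *Rpl39*, beside 14.8% of all probe sets and 8.96% of the strongest 20%. At 18 against 6 months 3 members were higher without overlap, *Rplp0*, *Rpl35* and *Rpl18* (all probe sets 5.32%, strongest 20% 11.8%). *Rpl39* was lower (8.35% and 5.43%). At 30 against 18 months *Rpl36al1* was higher without overlap (3.18% and 2.29%) and no member was lower (4.18% and 3.53%).

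*Rplp0* encodes the base of the P stalk, the arm of the large subunit that calls elongation factors to the ribosome. Its signal was 11423, 12061 and 11841 at 6 months, 12952, 14218 and 13285 at 18 months, then 13382, 15524 and 13311 at 30 months. Both later ages read above 6 months on every array and overlapped each other. The log2 change at 30 months was 0.25 (SE 0.11, 95% interval 0.008 to 0.50), a 1.20-fold ratio of means, with an adjusted p of 0.371 by limma. With quantile normalization it was 0.14 (adjusted p = 0.650). The stalk partners *Rplp1* and *Rplp2* were not analysed here.

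*Rpl35*, *Rpl26*, *Rpl31*, *Rpl39* and *Rpl17* encode proteins at or near the tunnel through which the growing peptide leaves, and their differences had both signs. *Rpl35* gave 5482, 5508 and 5255 at 6 months, 6085, 6027 and 6360 at 18 months, then 6371, 6155 and 6442 at 30 months. Its 6-month arrays lay below all others, its log2 change at 30 months was 0.22 (SE 0.10, limma adjusted p = 0.379), and its other probe set gave 0.26 at that age. *Rpl26* gave 6377, 7646 and 8378 at 6 months, 6863, 9453 and 9430 at 18 months, then 9262, 10193 and 8660 at 30 months. The 30-month arrays were above the 6-month ones, but the 6-month spread was wide, and the log2 change of 0.33 had an interval of -0.03 to 0.69 (adjusted p = 0.410). Its other probe set gave 0.16, with overlap: 5096, 7003 and 5899 at 6 months and 6650.0, 7020 and 6342 at 30 months. *Rpl39* read the other way, at 4238, 4038 and 4168 at 6 months, 3589, 3008 and 3999 at 18 months, then 3999, 3579 and 3565 at 30 months. Its log2 change was -0.24 at 18 months (adjusted p = 0.617; -0.13 without replicate 2 of that age) and -0.16 at 30 months (adjusted p = 0.603). *Rpl31* gave 11107, 11068 and 9787 at 6 months and 10001, 9692 and 9347 at 30 months, which overlap, with a log2 change of -0.14. The weak *Rpl17* reading gave log2 changes of -0.17 at 18 months and 0.03 at 30 months.

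*Rpl3* lies by the site of peptide bond formation, and *Rpl3l* is its paralogue, known as a form of striated muscle. *Rpl3l* read 5466, 5045 and 5366 at 6 months, 5408, 7106 and 6322 at 18 months, then 5435, 7500 and 5486 at 30 months. A single array at 30 months and 2 at 18 months were well above the 6-month values, and the groups overlapped, with log2 changes of 0.24 and 0.20 (adjusted p = 0.677 and 0.598), or 0.14 and 0.05 without replicate 2 of the later age. Its other probe set read 4411, 3942 and 4866 at 6 months, 5394, 6356 and 5066 at 18 months, then 4993, 7005 and 5353 at 30 months. There both later ages lay above 6 months without overlap, with log2 changes of 0.34 and 0.38 and limma adjusted p of 0.584 and 0.361. *Rpl3* gave 1751, 1683 and 1641 at 6 months, 1926, 1751 and 1878 at 18 months, then 2159, 1817 and 1774 at 30 months. Its log2 change at 30 months was 0.17, or 0.08 without replicate 1 of that age, while its other probe set gave -0.24 at 18 months and -0.12 at 30. With these 2 probe sets each, *Rpl3l* minus *Rpl3*, as a difference of deviations on each array, depended on the probe sets chosen. With the strongest of each it shifted by 0.11 at 18 months and 0.03 at 30 months against 6 months, and by -0.08 at 30 against 18. With the other of each it shifted by 0.59, 0.50 and -0.09. The crossed pairs gave 0.48, 0.31 and -0.17, and 0.22, 0.21 and -0.01. The lowest exact two-sided permutation p over these 12 comparisons was 0.1, the smallest that 3 against 3 arrays allow, and 0.6 after adjustment over the 12.

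Among the other large subunit members, *Rpl7a* gave 6492, 7757 and 7922 at 6 months and 8323, 8867 and 8187 at 30 months, a log2 change of 0.20 (adjusted p = 0.496), or 0.11 without replicate 1 at 6 months. *Rpl24* and *Rpl23* encode proteins on the face that meets the small subunit. *Rpl24* gave 9840, 9978 and 10073 at 6 months, 8877, 11060 and 10446 at 18 months, then 11236, 11339 and 10909 at 30 months. The 30-month arrays stood above the 6-month ones by 0.16 on the log2 scale (adjusted p = 0.552), while the 18-month arrays spread across both. Its other probe set gave 0.11, with overlap, and quantile normalization gave 0.07. *Rpl23* overlapped at all ages, with a log2 change of 0.14 at 30 months, or 0.05 with quantile normalization. Its other probe set gave -0.12 at 30 against 6 months and -0.17 at 30 against 18, the latter lower without overlap (limma adjusted p = 0.999), so its direction differed between probe sets. *Rpl18* was 3663, 3465 and 3786 at 6 months, 3815, 4541 and 4443 at 18 months, then 3942, 4002 and 3434 at 30 months. It was thus higher without overlap at 18 months alone, by 0.22, and its log2 difference of -0.17 at 30 against 18 months was the lowest of any member in that comparison. *Rpl6* gave -0.09 and *Rpl31* gave -0.08 in that comparison. *Rpl21* gave -0.10 at 30 against 6 months.

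In the small subunit, *Rps23*, a protein of the decoding centre, gave 4440, 4099 and 4085 at 6 months, 4373, 4224 and 4677 at 18 months, then 4647, 5131 and 4569 at 30 months. It was the only small subunit member whose 30-month arrays all exceeded the 6-month ones, with a log2 change of 0.18 (SE 0.11, adjusted p = 0.486). *Rps29*, a zinc-binding protein of the small subunit's head, gave 25708, 22412 and 22272 at 6 months, 23529, 26919 and 24529 at 18 months, then 26686, 27538 and 25417 at 30 months. One 6-month array lay among the 30-month values, and the log2 change of 0.18 turned to -0.02 with quantile normalization. Its other probe set gave 0.06. *Rps16* gave 0.11 at 30 months, or 0.04 with quantile normalization. *Rpsa*, first described as a laminin receptor precursor, gave 0.06, or -0.01 with that scaling. *Rps9* gave -0.02, and *Rps15* gave 0.01 at both later ages. The pseudogene *Rps4x-ps9* gave -0.11 at 18 months and -0.05 at 30 months.

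*Rps6*, the substrate of the S6 kinases, gave 6630, 6135 and 6393 at 6 months, 6615, 5103 and 6003 at 18 months, then 5692, 5343 and 6438 at 30 months. The ages overlapped, and the log2 changes of -0.12 and -0.14 (adjusted p = 0.806 and 0.672) were the lowest of the small subunit's members with a signal of at least 1000. Its other probe set gave 2076, 2743 and 2766 at 6 months and 2801, 2858 and 2867 at 30 months, higher without overlap by 0.18 (adjusted p = 0.584). The direction of *Rps6* is therefore not settled by these arrays.

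**Figure D3:**
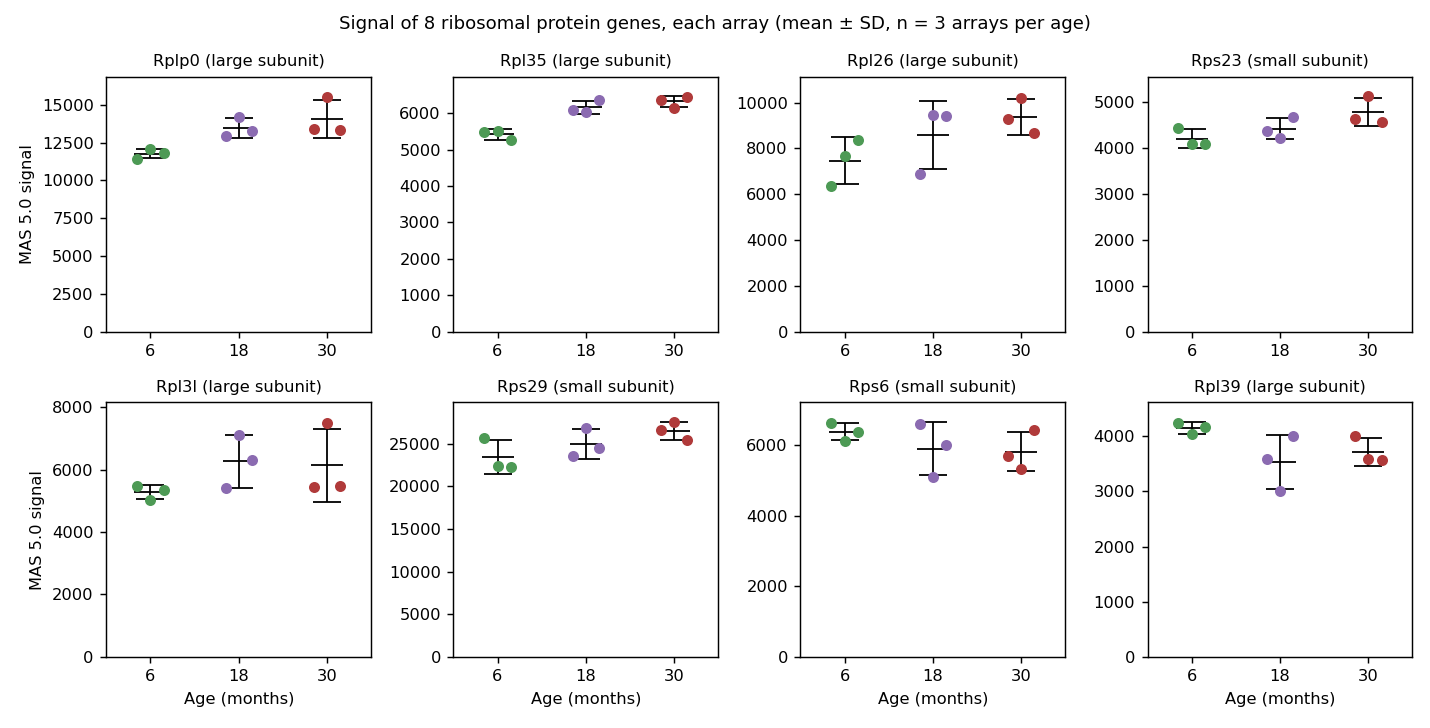
Signal of 8 ribosomal protein genes on each of the 9 arrays by age in months, each panel with its own linear axis from 0; points are arrays, and lines are the mean and SD of 3 arrays. *Rplp0*, *Rpl35*, *Rpl26* and *Rps23* have all 30-month points above all 6-month points, *Rpl39* has them below, and *Rpl3l*, *Rps29* and *Rps6* overlap.

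The largest differences by size came from weak or scattered readings. *Rpl30* had the highest log2 change at 30 months, 0.83, with an interval of -0.18 to 1.84. Its arrays read 31.1, 104 and 42.9 at 6 months, 47.5, 27.9 and 193 at 18 months, then 102, 150 and 117 at 30 months, which overlap. Its coefficient of variation was 63.7%, the highest of the members past the filter. *Rpl19l4* had the lowest change at 18 months, -0.40, and -0.02 at 30 months. Its signal was 1906 on replicate 1 at 6 months and 1806 on replicate 3 at 30 months, and between 895 and 1182 on the other 7 arrays. *Rps24* had the same 2 high arrays, at 555 and 680.1, and 305 to 378 on the others, with log2 changes of -0.30 and 0.03. The same weak or scattered readings held the highest values at 30 against 18 months, 0.59 for *Rpl30*, 0.38 for *Rpl19l4*, 0.33 for *Rps24* and 0.20 for *Rpl17*, and none passed the test.

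Genes with a second probe set gave a check of direction. Of the 43 genes, 17 had several probe sets and 26 had 1, and for 16 genes at least 2 probe sets passed the filter. All probe sets of a gene had the same sign for 9 of the 16 at 18 against 6 months, 8 at 30 against 6 and 6 at 30 against 18. The gap between a gene's highest and lowest change had medians of 0.07, 0.13 and 0.09. The widest gaps were 0.37 in *Rpl3*, 0.37 in *Rpl21* and 0.32 in *Rpl21*, respectively. The gaps are thus of the size of the changes themselves. Another 30 probe sets carry several symbols, all of them ribosomal protein genes, and stand outside the rule. The 29 of them past the filter had median changes of 0.01, 0.07 and 0.03, with 16, 21 and 18 above 0 and 0 called by limma. At an unadjusted p under 0.05 there were 1, 0 and 1.

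Large and small subunit were compared in their changes and in each array's deviation from a gene's own mean, since levels of different probe sets cannot be set against each other. The large subunit's median log2 change was 0.07 at 18 against 6 months, 0.08 at 30 against 6 and 0.05 at 30 against 18. The small subunit's was 0.01, 0.02 and 0.03. Large minus small was 0.07, 0.05 and 0.01. The first became 0.04 without replicate 1 at 6 months, the second 0.09 without replicate 3 at 6 months, and the last -0.01 without replicate 1 at 18 months. When arrays were left out in turn, the ranges were 0.04 to 0.09, 0.04 to 0.09 and -0.01 to 0.04. Above 0 were 18, 24 and 20 of 28 large members and 7, 10 and 10 of 13 small members.

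On single arrays the large subunit's median deviation was -0.08, -0.01 and -0.05 at 6 months, 0.01, 0.02 and 0.01 at 18 months, then 0.08, 0.08 and 0.005 at 30 months. The small subunit's was -0.01, 0.03 and -0.08 at 6 months, 0.01, -0.02 and -0.003 at 18 months, then 0.06, 0.08 and -0.07 at 30 months. Large minus small gave -0.07, -0.04 and 0.03 at 6 months, 0.01, 0.04 and 0.02 at 18 months, then 0.02, 0.001 and 0.08 at 30 months. The ages overlapped in that difference, whose mean was -0.03 ± 0.05 (SD, n = 3) at 6 months, 0.02 ± 0.02 at 18 months and 0.03 ± 0.04 at 30 months. For all members together, the median deviation was 0.07 and 0.08 on replicates 1 and 2 at 30 months and -0.02 on replicate 3, which lay within the 6-month range of -0.06 to 0.002. Members above their own mean numbered 34, 29 and 19 of 41 on the 30-month arrays, 21, 20 and 21 at 18 months, then 14, 21 and 9 at 6 months. The members' share of the summed signal was 3.34% to 3.66% over the arrays.

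**Figure D4:**
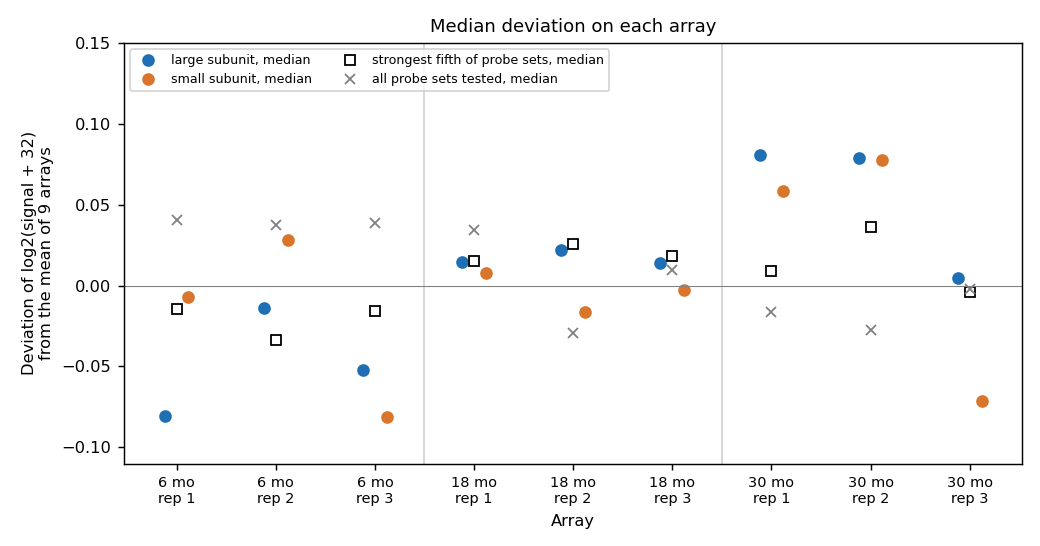
Median deviation of log2(signal + 32) from each probe set's mean over 9 arrays, by array, for the large subunit (blue), small subunit (orange), strongest 20% of probe sets (squares) and all probe sets tested (crosses). Replicates 1 and 2 at 30 months have both subunits highest, at 0.06 to 0.08, while replicate 3 at 30 months has the large subunit near 0 and the small subunit at -0.07.

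Members correlated with each other only weakly over the arrays. Pearson's r of log2(signal + 32) over the 9 arrays had a median of 0.14 over 820 pairs of members (quartiles -0.15 and 0.42), and 63.4% of pairs were above 0. Pairs of all 3163 genes tested had a median of 0.02 (52.1% above 0), and pairs of genes among the strongest 20% 0.03 (52.4%). Members with other genes of the strongest 20% had 0.02. Within the large subunit the median was 0.14, within the small subunit 0.16, and between the subunits 0.13. After each age's mean was removed, the medians were 0.08 over all member pairs, 0.02 within the large subunit, 0.17 within the small and 0.12 between them. Pairs of all genes tested then had 0.02, and those of the strongest 20% 0.01. The member median depended on the scaling of the arrays, at 0.07 with quantile normalization, 0.29 with arrays centred on all probe sets and 0.14 with arrays centred on the strongest 20%. Genes of the strongest 20% moved too, at 0.01, 0.11 and 0.01 with those scalings. These correlations describe 9 shared arrays, and the pairs share genes and each array's scaling.

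The correlations ran widely from pair to pair, as did those of all genes tested (quartiles -0.27 and 0.31). The pairs named here are the extremes of 820 pairs over 9 arrays, so their r is not a test. *Rpl26* and *Rpl7a* reached 0.95, *Rpl13a* and *Rpsa* 0.94, and *Rpl19l4* and *Rps24* 0.87. At the other end were *Rpl21* with *Rpl26* at -0.93, *Rpl19l4* with *Rpsa* at -0.89 and *Rpl21* with *Rpl24* at -0.87. The highest median r to the other members belonged to *Rps10* (0.41), *Rpl35a* (0.40) and *Rpl13a* (0.35). The lowest belonged to *Rps6* (-0.33), *Rpl19l4* (-0.29) and *Rps24* (-0.25). Each r is for 1 probe set per gene. The other *Rps6* probe set changed the other way at 30 against 6 months (0.18, beside -0.14). Among 3122 genes that are no members, those most like the members' mean deviation over the 9 arrays were *Ddr1* (r = 0.90), *Igf2* (0.90), *Clu* (0.85), *Gstm2* (0.85), *Atp5pf* (0.85) and *Slc25a5* (0.84). After each age's mean was removed, their r was 0.84, 0.70, 0.77, 0.66, 0.68 and 0.82. Their log2 changes at 30 against 6 months were 0.20, 0.37, 0.42, 0.47, 0.21 and 0.14, and none passed limma's threshold after adjustment. A search of 3122 genes over 9 arrays picks high r by design, so neither r nor the sign of these changes is a test.

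**Figure D5:**
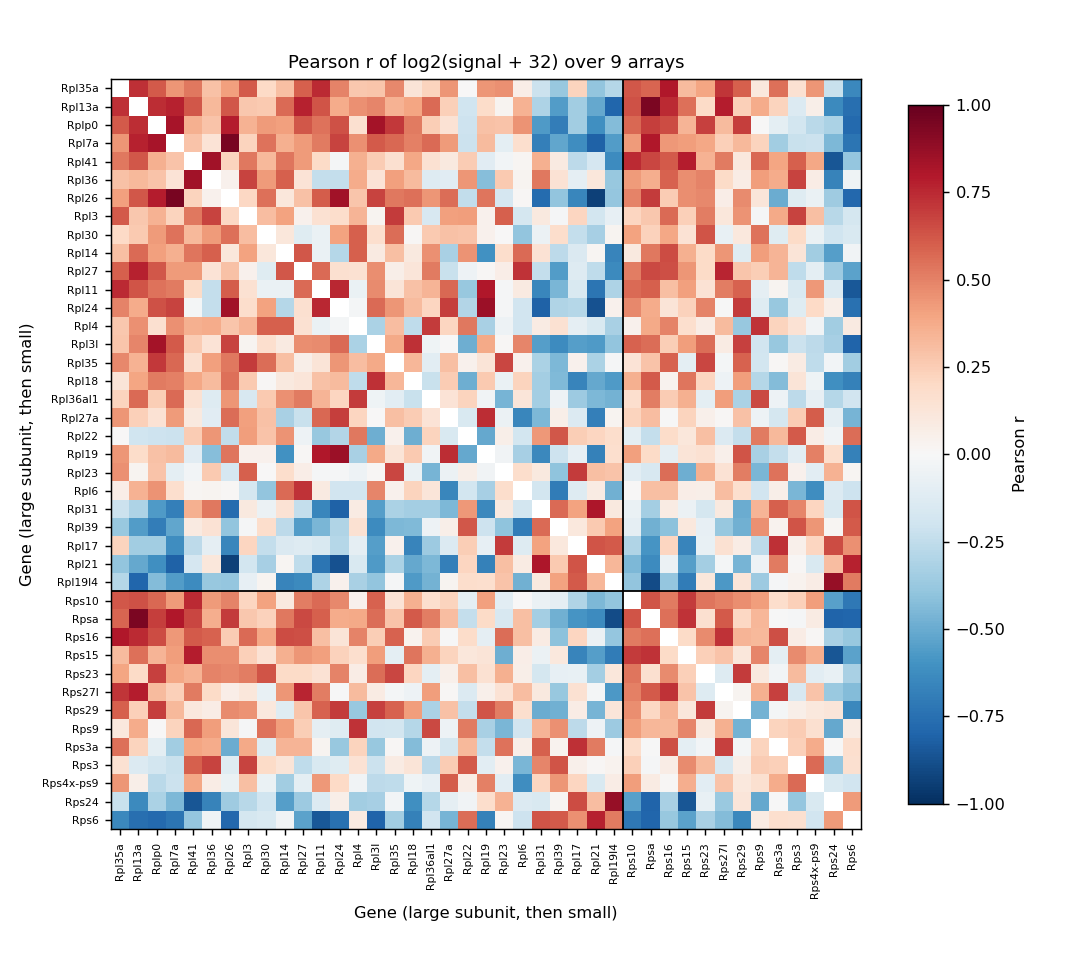
Pearson's r over 9 arrays for each pair of the 41 ribosomal protein genes past the filter, ordered within each subunit by median r to the other members, from high to low, with black lines between large and small subunit; red is above 0, blue below, and the blank diagonal is each gene with itself. Red and blue blocks both cross the subunit border, and *Rps6*, *Rps24* and *Rpl19l4* are blue against many other members.

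Other parts of the translation machinery were read from lists written from general knowledge, and 0 genes of these lists passed limma's threshold at any age. Of the elongation factor list, which includes the kinase *Eef2k*, 5 of 10 were tested. Of these, 2 were above 0 at 18 and 2 at 30 months, with medians of -0.03 and -0.04. *Eef2*, which moves the ribosome along the message, read 10657 ± 961 (SD, n = 3) at 6 months, 11741 ± 475 at 18 and 11416 ± 559 at 30 months. *Eef1a2*, the form of adult muscle and neurons of the factor that brings aminoacyl-tRNA, read 7796 ± 849, 8867 ± 1500 and 9619 ± 796. *Eef1a2* had a log2 change of 0.30 at 30 months (adjusted p = 0.410). Of the initiation factor list, which includes *Eif4ebp1*, 17 of 41 were tested, with 5 and 6 above 0 and medians of -0.13 and -0.10. *Eif4a2*, a helicase that unwinds the start of messages, had log2 changes of 0.01 and 0.02. *Eif3b*, a subunit of the factor that binds the small subunit, had -0.26 and 0.02.

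Of the mTOR and S6 kinase list, which also includes the kinases *Eif2ak2* and *Eif2ak3*, 3 of 12 tested genes were above 0 at each later age. *Eif2ak2* was among the 3 at both ages, and *Rps6kb1* was the only S6 kinase tested. The list's medians were -0.03 and -0.10, and *Rheb*, the direct activator of mTOR, gave -0.002 and -0.08. *Eif4ebp1*, the mTOR target that holds back the cap-binding protein, read 2243 ± 222 at 6 months, 1640 ± 602 at 18 and 1045 ± 173 at 30 months, a log2 change of -1.09 at 30 months with an adjusted p of 0.182. Other messages with the same kind of 5' tract were above 0 in 1 and 3 of 7, with medians of -0.03 and -0.04. Of these, *Eef1a1*, *Eef1g*, *Eef2* and *Rack1* also belong to other lists read here. *Rack1*, a small subunit protein whose symbol lies outside the rule and the only tested gene of its list of 4, gave -0.01 and 0.03. Ribosome assembly genes were above 0 in 5 of 13 at each later age, with medians of -0.06 and -0.06, and *Polr1d*, a subunit of RNA polymerases I and III, gave -0.07 and -0.15. *Ncl*, the nucleolar protein nucleolin, gave 0.36 and 0.48 (adjusted p = 0.668 and 0.397). Mitochondrial ribosomal proteins were above 0 in 7 and 4 of 14, with medians of 0.004 and -0.06, *Mrpl3* gave -0.04 and -0.09, and *Mrpl23* -0.04 and -0.06. Aminoacyl-tRNA synthetases were above 0 in 2 and 1 of 4, with medians of -0.02 and -0.07; *Kars1*, for lysine, gave 0.01 and -0.01 and *Tars1*, for threonine, -0.19 and -0.20. The lists were not matched to the members on signal, and the median change over all probe sets climbs with signal.

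In bulk muscle RNA, fewer cells of a type and less RNA per cell cannot be told apart. Of 15 markers of skeletal muscle fibres, the labelled tissue, 13 passed the filter. All 13 had log2 changes above 0 at both later ages (medians 0.21 and 0.28, 0 called by limma, 4 and 5 at an unadjusted p under 0.05), with summed signals of 202997 to 236530 at 6 months, 236440 to 285743 at 18 months and 246888 to 266190 at 30 months. Of the 9 fibroblast markers, none was above 0 at either age (medians -0.72 and -0.81, 1 and 4 lower by limma). At limma's unadjusted p under 0.05 there were 9 and 6. Summed signals were 17313 to 21986, 12475 to 13647 and 13896 to 14169. *Col1a2*, a collagen I chain, had log2 changes of -1.11 and -1.35 with adjusted p of 0.0168 and 0.00920. Limma's calls changed when single arrays were left out. The log2 change of *Col1a2* then stayed at -1.03 to -1.19 at 18 months and at -1.26 to -1.42 at 30. At 18 months the adjusted p of *Col1a2* was 0.0969 and 0.120 without replicates 1 and 2 at 6 months, and 0.0728 and 0.116 without replicates 2 and 3 at 18 months. At 30 months 0 fibroblast markers were called without replicate 2 at 6 months, replicate 2 at 30 months or replicate 3 at 30 months. The count was 1 without replicate 1 or 3 at 6 months, and 2 without replicate 1 or 3 at 18 months or replicate 1 at 30 months. The medians of the lists are given for all arrays. Their part in the members' readings was not tested.

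Of 4 tested leukocyte markers, 1 was above 0 at 18 months and 4 at 30 months. The counts were 2 and 2 of 2 for erythrocytes, 0 and 1 of 4 for Schwann cells and nerve, 0 and 0 of 3 for adipocytes, 2 and 1 of 6 for endothelium and smooth muscle, and 0 and 2 of 2 for satellite cells, with 0 called. No marker of cartilage or of laryngeal epithelium passed the filter, with summed signals of at most 152 and 104. As a sign of RNA quality, the *Gapdh* signal at the 3' over that at the 5' end was 1.09, 1.03 and 1.07 on the 6-month arrays, 1.17, 1.03 and 1.10 on those of 18 months, and 1.11, 1.10 and 1.15 on those of 30 months. It was thus higher at 30 than at 6 months without overlap, while the actin ratio overlapped (0.942 to 1.15 and 0.919 to 1.02). The median signal of an array also differed without overlap, at 120.1 to 125 at 6 months and 105.0 to 112 at 30 months, with the 2% trimmed mean at 500.868 to 500.968. Both differed at 30 against 6 months, where 34 of 41 members were above 0. At 30 months replicate 3 had the highest *Gapdh* ratio (1.15) and median signal (112) and the fewest members above their own mean (19). At 6 months replicate 2 had the lowest ratio (1.03), the highest median signal (125) and the most such members (21). At 18 months ratios of 1.17, 1.03 and 1.10 and median signals of 116, 104 and 116 stood beside 21, 20 and 21 such members. The part of either measure in the members' readings was not tested.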

How the data were processed

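The deposited table holds signal intensity, computed by the authors with Affymetrix Microarray Suite 5.0 per the series' design text and left on a linear scale with a 2% trimmed mean of 500.868 to 500.968. The labels name both Cy3 and Cy5, but the design text describes biotinylated cRNA, so arrays were treated as having 1 channel. Array number limits the precision. Of 8799 probe sets, 59 controls were left out. The upper 60% by mean log2(signal + 32), a cutoff of 6.60, were tested (5244). Symbols came from the platform annotation: 7006 probe sets had 1, 308 several and 1426 none. The authors' calls by detection and a fold over 1.7 were not used.

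A model with 1 mean per age was fitted over 9 arrays with limma 3.58.1 in R 4.3.3 (6 residual, 3.69 prior degrees of freedom), with two-sided p-values and Benjamini-Hochberg adjustment at 0.05. It was tested on simulated data. Errors of log2 changes are standard errors, and errors of signals are SDs of 3 arrays. Correlations are Pearson's r over 9 arrays, given as description.

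Members, lists and alternatives were chosen with earlier results of these data known. Named were, per subunit, the 3 members with the highest signal, the 3 largest changes each way per comparison, members without overlap at 30 against 6 months (up to 4 per subunit by p), fixed members (*Rplp0*, *Rpsa*, *Rps6*, *Rpl3*, *Rpl3l*), the 3 least correlated, and the 6 most similar other genes. *Rpl36al1*, *Rps10*, *Rpl35a*, *Rpl13a*, *Col1a2* and members named beside a count or pair were added after their values were seen. From each pathway list the 2 genes with the highest signal were named (*Eif4ebp1* by the mTOR list). Alternatives changed the pseudocount, filter, scaling, probe set rule, replicate block, arrays and member set.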

Additional observations from a re-analysis of the deposited data

How the results depend on the processing

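Over 20 alternatives, among them a fold of mean signals over 1.7 without overlap between ages in place of limma's threshold, 0 members were called in any comparison. At an unadjusted p under 0.05 limma's counts were 0, 2 and 0. The other main values moved by more than the spread between arrays in 4 cases. The members' median log2 change at 18 against 6 months was -0.030 with quantile normalization and 0.060 with arrays centred on all probe sets. At 30 against 6 months it was 0.11 with that centring and 0.054 to 0.11 when each array was left out. Calls over all probe sets depended on single arrays: at 30 against 6 months the 17 calls became 0 without replicate 2 at 6 months, replicate 2 at 30 months or replicate 3 at 30 months, and 3 and 2 without replicates 1 and 3 at 6 months, and at 18 against 6 months the 4 became 0 without replicate 2 at 6 months or replicate 3 at 18 months. The 14 calls of the F-test were 0 to 14 over the alternatives. The median r between members ranged from 0.07 to 0.29.

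Among the 3 largest changes each way per subunit and comparison, the sign changed in 21 cases, and the cause was not tested. With quantile normalization these were *Rps29* at 18 and 30 against 6 months (-0.086 and -0.021), *Rps16* at 18 against 6 (-0.037) and *Rps6* at 30 against 18 (0.026). With arrays centred on all probe sets they were *Rps9* at 30 against 6 (0.032) and *Rps15* at 30 against 18 (0.00077). With the mean over probe sets of a gene they were *Rps6* (0.0040, 0.021 and 0.017 in the 3 comparisons), *Rpl21* at 30 against 6 (0.020) and *Rps15* at 30 against 18 (0.066). Leaving out each array in turn gave -0.32 to 0.63 for *Rpl30* at 18 against 6, and at 30 against 6 months -0.15 to 0.027 for *Rps4x-ps9* and -0.083 to 0.038 for *Rps9*. At 30 against 18 months it gave -0.056 to 0.027 for *Rpsa*, -0.12 to 0.069 for *Rps6* and -0.058 to 0.082 for *Rps15*. Members outside these largest changes also changed sign and are not counted. For example, *Rpl24* at 18 against 6 months went from 0.017 to -0.079 with quantile normalization.

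The replicate numbers were not taken to pair the samples. Deviations of same-numbered arrays of different ages correlated at -0.02 to 0.26 (median 0.09) over 9 pairs, 4 of them over 0.1. Those of other-numbered arrays correlated at -0.21 to 0.15 (median -0.04) over 18 pairs, 2 of them over 0.1. With the replicate block, 0 members were called in each comparison and the median change at 30 against 6 months was 0.06; calls over all probe sets went from 4, 17 and 1 to 6, 11 and 0.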
